A study of Mus musculus with 4 samples.

Results

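Serpins are a family of protease inhibitors and their relatives, and the mouse genes of the family were followed through 4 bones. The members were the genes of all array probes, controls aside, whose deposited gene name is that of a serpin of clades A to I. The array held 73 such probes for 54 genes, of 27595 genes with a value in all: 20 genes of clade A, 24 of clade B and 10 of clades C to I. By at least 1 probe, 42 of them lay well above background on at least 1 array, and 12 did not: Serpina12, Serpina1f, Serpina3a, Serpina4-ps1, Serpina5, Serpina7, Serpinb13, Serpinb3d, Serpinb9b, Serpinb9c, Serpinb9d and Serpini2. By the probe used for each gene, 39 were well above background in the maxilla, 34 in the femur and 32 each in the ilium and mandible. Serpinb9g was so in the femur only, and Serpinb3a in the maxilla only, by its dimmer probe.

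A typical serpin offers a flexible loop as bait, the target protease cuts it, and the serpin then springs into a new fold that traps the protease. Clade A holds mostly secreted plasma proteins, such as alpha-1-antitrypsin and the antichymotrypsins. Clade B proteins mostly stay inside cells and protect them from proteases of their own granules and lysosomes. Some members no longer inhibit proteases, among them the collagen chaperone Serpinh1 (Hsp47) and the epithelial protein Serpinb5 (maspin). In mice several branches have expanded into tandem gene clusters.

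Total RNA of the ilium, femur, maxilla and mandible of male C57BL/6 mice aged 35 days, with no allele or treatment named for them, was hybridised to 4 single-channel arrays, 1 for each bone. The study set the jaw bones (maxilla and mandible) against bones of the trunk and limbs (ilium and femur). How many mice contributed to each RNA is not in the labels, and no bone was replicated. The p-values therefore weigh the difference between the classes against an error from the spread between bones of a class, moderated over all genes. They do not measure how animals vary. Each value is a log2 signal minus the log2 of its array's 75th percentile. They compare a gene between bones and do not rank different genes, whose probes differ. In whole bone, fewer cells of a type and less RNA per cell cannot be told apart.

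Marker lists described what the bones contained, each by the summed signal of its genes relative to the 75th percentile, in the order ilium, femur, maxilla and mandible. All 9 osteoblast and osteocyte genes were well above background in every bone, with sums of 144, 120, 185 and 170. Blood cell sums were higher in the ilium and femur: 875, 867, 569 and 417 for 9 neutrophil genes, 174, 191, 23.6 and 35.2 for 7 erythroid genes and 51.0, 61.7, 16.3 and 15.2 for 7 B lymphocyte genes. A sum leans on its brightest genes. Of the neutrophil genes, only Ltf (log2 values 7.30 in the maxilla and 5.26 in the mandible) and S100a9 (8.15 and 7.75) were higher in the maxilla than the mandible. All others on that list were lower there. Epithelial and tooth sums were higher in the jaw. They were 4.71, 4.84, 95.3 and 125 for 12 stratified epithelium genes and 0.281, 0.0780, 96.1 and 263 for 7 tooth genes. The 9 nasal and salivary gland genes stood at 0.537, 0.218, 541 and 0.550, so that list was high in the maxilla alone. Neuron and nerve genes summed to 0.700, 0.636, 6.78 and 5.81, skeletal muscle genes to 678, 680, 119 and 577, and cartilage genes to 37.2, 5.36, 6.89 and 8.75. Megakaryocyte and platelet genes summed to 144, 180, 26.7 and 37.9, T and killer lymphocyte genes to 1.30, 1.79, 0.660 and 0.356, mast cell and basophil genes to 5.25, 5.91, 3.16 and 4.27, adipocyte genes to 98.7, 51.6, 19.6 and 45.6 and vascular endothelium genes to 9.19, 7.48, 7.12 and 12.3.

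The serpin genes that passed the test between the classes of bone were mostly lower in the jaw. Of the 37 serpin genes well above background on at least 2 arrays, limma called Serpinb5 alone higher in the jaw bones (1 gene) and 6 lower: Serpina3f, Serpina3g, Serpinb1a, Serpinb1c, Serpinb10 and Serpinf2. These 7 genes are 18.9% of the serpins tested, 2.70% higher and 16.2% lower, against 11.8% of all 20616 genes tested (4.51% higher and 7.25% lower). Serpinb5 was well above background in neither the ilium nor the femur, so it entered the test through the jaw arrays alone. Its call rests on those low signals, and with only genes well above background on all 4 arrays it drops out, leaving the 6 lower calls. A rule of size asked that the classes lie apart by at least 1 on the log2 scale (a factor of 2), and it separated 2 serpins upwards and 8 downwards. That is 5.41% and 21.6% of the serpins tested, against 9.34% and 9.82% of all genes tested. Both upward ones, Serpinb5 and Serpinb12, were well above background in neither the ilium nor the femur. The median difference, jaw minus trunk and limb, was 0.15 over the serpins tested and -0.03 over all genes tested. Of the 37 differences 20 were positive. Median centring of each array, or the deposited series table, moved the median of all genes to -0.28 and that of the serpins to -0.10, and the share of all limma calls that were higher in the jaw from 38.3% to 26.8% and 27.2%. When either the ilium or the femur was dropped, limma called 0 of all genes, with 11 and 7 serpins at an unadjusted p under 0.05. A fit without the maxilla or without the mandible leaves 1 jaw bone, so its calls give no check on the 7 calls above.

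**Figure D1:**
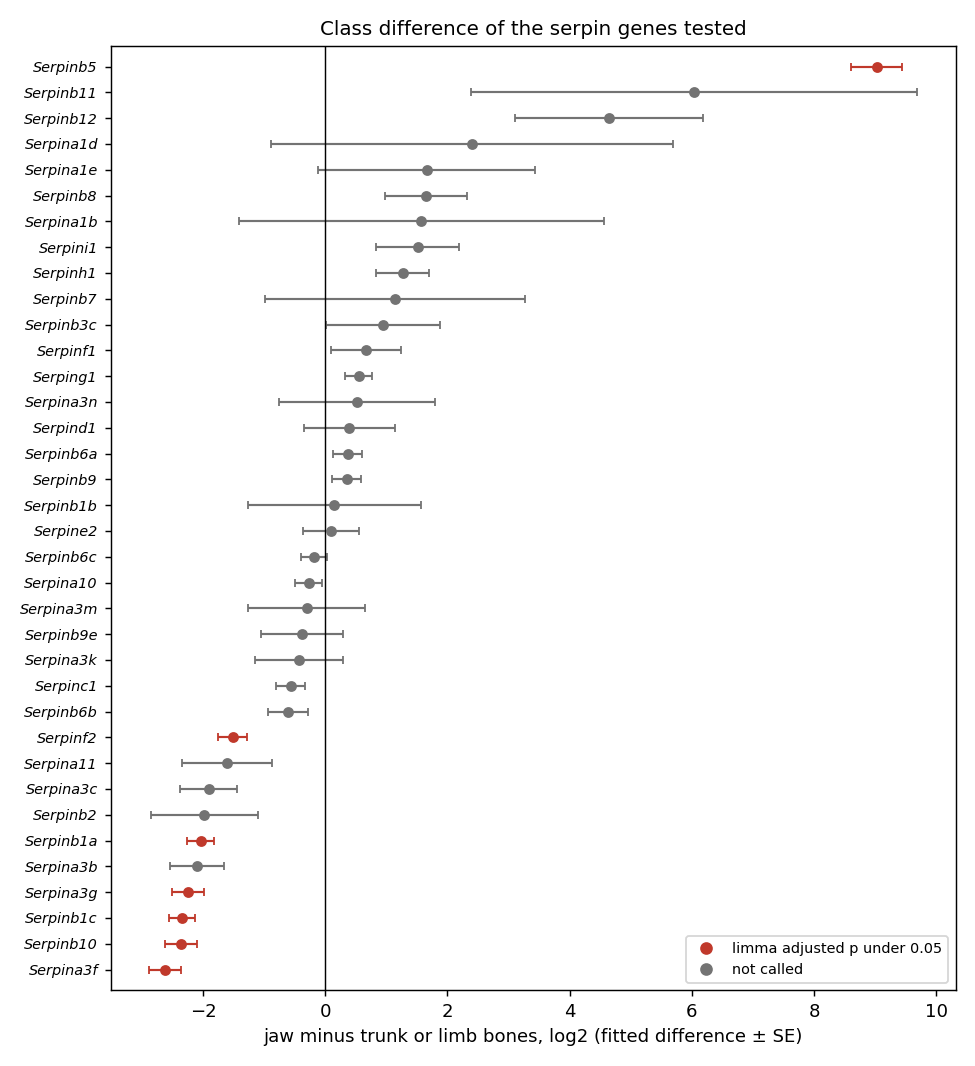
Fitted difference between jaw bones and trunk or limb bones (x axis, log2) for 36 of the serpin genes tested (y axis), with bars for ± SE over 2 bones per class; red points passed limma's adjusted p threshold of 0.05. Serpinb5 lies far to the right at 9.02, 6 red points lie between -2.62 and -1.51, and genes with wide bars are those in which maxilla and mandible, or ilium and femur, lay far apart.

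The maxilla and the mandible differed more than the ilium and the femur, for serpin genes and for all genes. Over all genes tested the median absolute log2 difference was 0.45 between maxilla and mandible and 0.19 between ilium and femur. By the rule used for single arrays, a 4-fold difference with the brighter bone well above background, 14 of 39 serpin genes (35.9%) had the maxilla above the mandible and 0 had it below. Among all 21084 genes this applied to, 8.95% were higher in the maxilla and 2.50% higher in the mandible. Of the 14 genes, 7 were of clade A and 7 of clade B. In 13 of them the maxilla was the highest of all 4 bones, in 11 by 4-fold or more over each other bone by measured signal. In 5 of the 14 the mandible was not well above background. Over the mandible, the bounds for Serpina6 (3.30-fold) and Serpinb3b (3.51-fold) fell short of 4-fold. The probes of Serpina1d, Serpina1e and Serpinb3b also list transcripts of paralogues. Between the ilium and the femur, 2 of 35 serpins (5.71%) were higher in the ilium and 0 in the femur, against 0.684% and 0.302% of 20895 genes. With 1 array for each bone these differences have no replicate check and no test.

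Clade B lies in 2 clusters. On chromosome 1 (probes between 108709555 and 109432167, mm8) the array covered 12 genes, among them relatives of maspin, of squamous cell carcinoma antigen (Serpinb3a to Serpinb3d) and of plasminogen activator inhibitor 2 (Serpinb2). Of these, 8 were tested, with 1 called higher and 1 lower by limma and a median difference of 1.40. In 6 of the 9 genes well above background in a jaw bone the maxilla was 4-fold or more above the mandible. Among all genes, limma called 4.51% higher and 7.25% lower, and 8.95% had the maxilla 4-fold or more above the mandible. The same shares apply to the groups below.

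Serpinb5 (chromosome 1, 108709555 to 108709614, mm8), which encodes maspin of epithelial cells, stood at -8.45 in the ilium and -7.73 in the femur, against 0.56 in the maxilla and 1.30 in the mandible. Neither the ilium nor the femur value was well above background, so the gene entered the test through the jaw arrays, and the classes did not overlap. The jaw bones were at least 172-fold higher, and the fitted difference, which rests on signals not well above background, was 9.02 ± 0.42 (SE, 2 bones per class; limma adjusted p = 0.0325, which is the lowest value over all genes). With normexp background correction the difference was 5.07. The stratified epithelium markers were higher in the same 2 bones (7 of 9 tested called higher by limma, 0 lower). Krt15, Krt4, Dsg3 and Dsc3 were well above background in neither the ilium nor the femur. Of those, Krt15 alone was so in both jaw bones, Krt4 and Dsg3 were so in the maxilla only, and Dsc3 in no bone. The markers' part in the Serpinb5 difference was not tested.

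Its neighbour Serpinb12 stood at -8.57, -8.73, -1.91 and -6.09 (here and below in the order ilium, femur, maxilla, mandible). Both jaw bones lay above both other bones, which were not well above background, and the maxilla was 18.1-fold above the mandible. It met the size rule on ilium and femur signals that were not well above background. Only the mean of the jaw bones was at least 5.63-fold higher. The mandible value lay near the lowest ones well above background in the ilium (-6.46) and femur (-6.53). The limma threshold was missed (4.65 ± 1.54, adjusted p = 0.131). The difference was 1.40 with normexp background correction, under which the size rule was no longer met, and 2.86 for the mean over probes. Leaving out the maxilla gave 2.56 and leaving out the mandible 6.74. A second Serpinb12 probe was not well above background on any array and gave 1.07.

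Serpinb11 (chromosome 1, 109207726 to 109207785, mm8) stood at -7.17 in the ilium and -6.91 in the femur, against 3.99 in the maxilla and -6.01 in the mandible. It was high in the maxilla alone, 1021-fold above the mandible, and the ilium and femur were not well above background. Only the mean of the jaw bones was at least 44.7-fold higher. The mandible value lay near the lowest ones well above background in the ilium (-6.46) and femur (-6.53). The class difference of 6.03 ± 3.65 missed the limma threshold (adjusted p = 0.321). Serpinb7 (megsin) was also highest in the maxilla, with -6.35, -6.04, -2.16 and -7.95. Its maxilla value was at least 18.8-fold above the mandible, which was the lowest bone and not well above background. Here the femur was well above background and the ilium was not. The class difference of 1.14 ± 2.12 was not called (limma adjusted p = 0.735). Of the Serpinb3 genes, Serpinb3c stood at -3.64, -3.67, -1.45 and -3.96, and its maxilla value was 5.69-fold above the mandible. Serpinb3b was well above background in the maxilla only (-4.59) and at least 3.51-fold above each other bone there. Its probe also matches transcripts of Serpinb3a, so the 2 genes cannot be told apart by it.

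In the same cluster 1 gene was called the other way. Serpinb10, a serpin of blood-forming and myeloid cells (chromosome 1, 109374360 to 109374419, mm8), stood at 0.78 in the ilium and 1.19 in the femur, against -1.22 in the maxilla and -1.51 in the mandible. The classes did not overlap, and limma called it lower in the jaw by -2.35 ± 0.26 (adjusted p = 0.0325). A second probe, well above background only outside the jaw, gave -3.42. Serpinb2 stood at -1.13, -0.47, -1.65 and -3.90. It was lower in both jaw bones, but the mandible was 4.75-fold below the maxilla, and its class difference of -1.97 ± 0.88 was not called (adjusted p = 0.209). Serpinb8, the most distal gene of the cluster, had both jaw bones above both other bones, with a difference of 1.66 ± 0.67 that was not called (adjusted p = 0.183).

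Promoter sequences are shown for 4 genes of this cluster that differ in pattern: jaw-high Serpinb5, maxilla-high Serpinb11 and Serpinb7, and jaw-low Serpinb10. They are the 250 bases before the RefSeq start (build GRCm38.p6, plus strand for all 4), with matches in capitals to a TATA box (TATAAA), an AP-1 site (TGANTCA), a PU.1 core (GAGGAA) or a GATA site (GATAAG), searched on both strands.
Serpinb5 (chr1:106860925-106861174): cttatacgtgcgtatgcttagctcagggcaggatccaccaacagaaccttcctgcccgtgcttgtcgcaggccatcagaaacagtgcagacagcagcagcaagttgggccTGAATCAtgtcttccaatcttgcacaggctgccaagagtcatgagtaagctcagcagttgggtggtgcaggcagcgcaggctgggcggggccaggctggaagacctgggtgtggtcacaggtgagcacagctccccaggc
Serpinb11 (chr1:107362064-107362313): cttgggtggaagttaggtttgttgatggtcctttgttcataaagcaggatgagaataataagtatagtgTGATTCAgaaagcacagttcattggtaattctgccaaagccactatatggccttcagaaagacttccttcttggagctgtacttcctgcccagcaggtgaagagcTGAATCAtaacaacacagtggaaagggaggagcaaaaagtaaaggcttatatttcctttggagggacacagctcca
Serpinb7 (chr1:107422439-107422688): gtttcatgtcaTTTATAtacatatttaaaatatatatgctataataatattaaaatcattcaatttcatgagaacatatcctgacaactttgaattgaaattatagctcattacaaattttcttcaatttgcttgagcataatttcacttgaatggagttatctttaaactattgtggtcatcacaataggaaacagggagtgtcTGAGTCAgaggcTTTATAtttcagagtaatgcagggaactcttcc
Serpinb10 (chr1:107528753-107529002): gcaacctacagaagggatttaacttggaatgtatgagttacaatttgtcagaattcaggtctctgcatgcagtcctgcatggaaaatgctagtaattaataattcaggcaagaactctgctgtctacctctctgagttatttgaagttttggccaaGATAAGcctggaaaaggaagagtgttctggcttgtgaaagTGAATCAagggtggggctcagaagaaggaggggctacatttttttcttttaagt
Serpinb5 holds 1 AP-1 match, 140 bases before the start. Serpinb11 holds 2, at 181 and 76 bases, and Serpinb7 holds 1 at 45 bases beside TATA matches at 239 and 33 bases. Serpinb10 holds an AP-1 match at 54 bases and a GATA match at 94. In the whole cluster 7 of 11 genes with a promoter in the RefSeq table held an AP-1 match (jaw-high and jaw-low genes alike) and 7 held a TATA match, against 7.82% and 14.3% of 27025 genes. The genes arose by duplication and share sequence, so they are not independent, and a match of letters is no evidence of binding.

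On chromosome 13 (probes between 32850318 and 33926309, mm8) the array covered the other 12 clade B genes, relatives of the neutrophil elastase inhibitor Serpinb1 and of the cathepsin G and granzyme B inhibitors Serpinb6 and Serpinb9. Of these, 8 were tested, with 0 called higher and 2 lower by limma and a median difference of -0.28. In 1 of the 8 genes well above background in a jaw bone the maxilla was 4-fold above the mandible, against 8.95% of all genes.

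Serpinb1a (chromosome 13, 32850318 to 32850377, mm8), which inhibits neutrophil elastase, cathepsin G and proteinase 3, stood at 4.90 in the ilium and 5.02 in the femur, against 3.06 in the maxilla and 2.79 in the mandible. It was 4.10-fold lower in the jaw bones (-2.03 ± 0.22, limma adjusted p = 0.0325). Its paralogue Serpinb1c stood at 1.10, 1.10, -1.09 and -1.38 (-2.34 ± 0.21, adjusted p = 0.0325), and a second probe, well above background in the femur only, gave -1.54. For both genes the gap between the classes exceeded the gap between the bones of a class, and the classes did not overlap. The neutrophil and myeloid precursor markers were also lower in the jaw (5 of 9 called lower, 0 higher, median -2.27), and their part in these differences was not tested.

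The third Serpinb1 gene did not follow them. Serpinb1b stood at -3.40, -3.19, -1.22 and -5.07 (ilium, femur, maxilla, mandible), highest in the maxilla and lowest in the mandible, 14.4-fold apart. Its class difference was 0.15 ± 1.42 (adjusted p = 0.951), which became -0.10 with median centring or the deposited series table. A second probe was well above background in the maxilla only (-0.99 there, and -8.30, -8.40 and -7.24 elsewhere), so the probes disagree on the ilium and femur but both put the maxilla highest. Serpinb6a, which inhibits cathepsin G, stood at 1.97, 1.64, 2.28 and 2.06, a difference of 0.37 ± 0.24 (adjusted p = 0.346). The remaining tested genes, Serpinb6b, Serpinb6c, Serpinb9 and Serpinb9e, gave differences from -0.60 to 0.35, and none of them was called.

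The promoters of Serpinb1c are shown because a PU.1 core, the letters bound by a regulator of myeloid genes, recurred in this cluster. RefSeq lists 2 starts, both on the minus strand (GRCm38.p6), again with matches in capitals.
Serpinb1c (chr13:32940601-32940850): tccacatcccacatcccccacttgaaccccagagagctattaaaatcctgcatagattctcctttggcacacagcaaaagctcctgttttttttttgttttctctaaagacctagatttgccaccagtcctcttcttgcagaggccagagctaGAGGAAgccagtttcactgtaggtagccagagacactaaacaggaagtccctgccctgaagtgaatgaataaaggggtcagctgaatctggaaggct
Serpinb1c (chr13:32898141-32898390): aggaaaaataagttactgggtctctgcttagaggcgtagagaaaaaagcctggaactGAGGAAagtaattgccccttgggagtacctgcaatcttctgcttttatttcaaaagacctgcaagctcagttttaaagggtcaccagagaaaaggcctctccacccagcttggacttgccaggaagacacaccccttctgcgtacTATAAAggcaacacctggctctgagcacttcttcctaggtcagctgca
The first holds a PU.1 core 97 bases before the start, and the second holds a PU.1 core at 193 bases and a TATA match at 48. In this cluster 7 of 11 genes held a PU.1 core, against 25.85% of 27025 genes, and 0 held an AP-1 match. In the chromosome 1 cluster 0 of 11 held a PU.1 core. Of the 7, only Serpinb1c was called by limma, and Serpinb1b, Serpinb6b and Serpinb9e were tested and not called. Of 44 serpin genes listed, 14 held a TATA match, 9 an AP-1 match, 9 a PU.1 core and 4 a GATA match, the last against 7.60% of all genes. Serpinb1a has no entry.

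**Figure D2:**
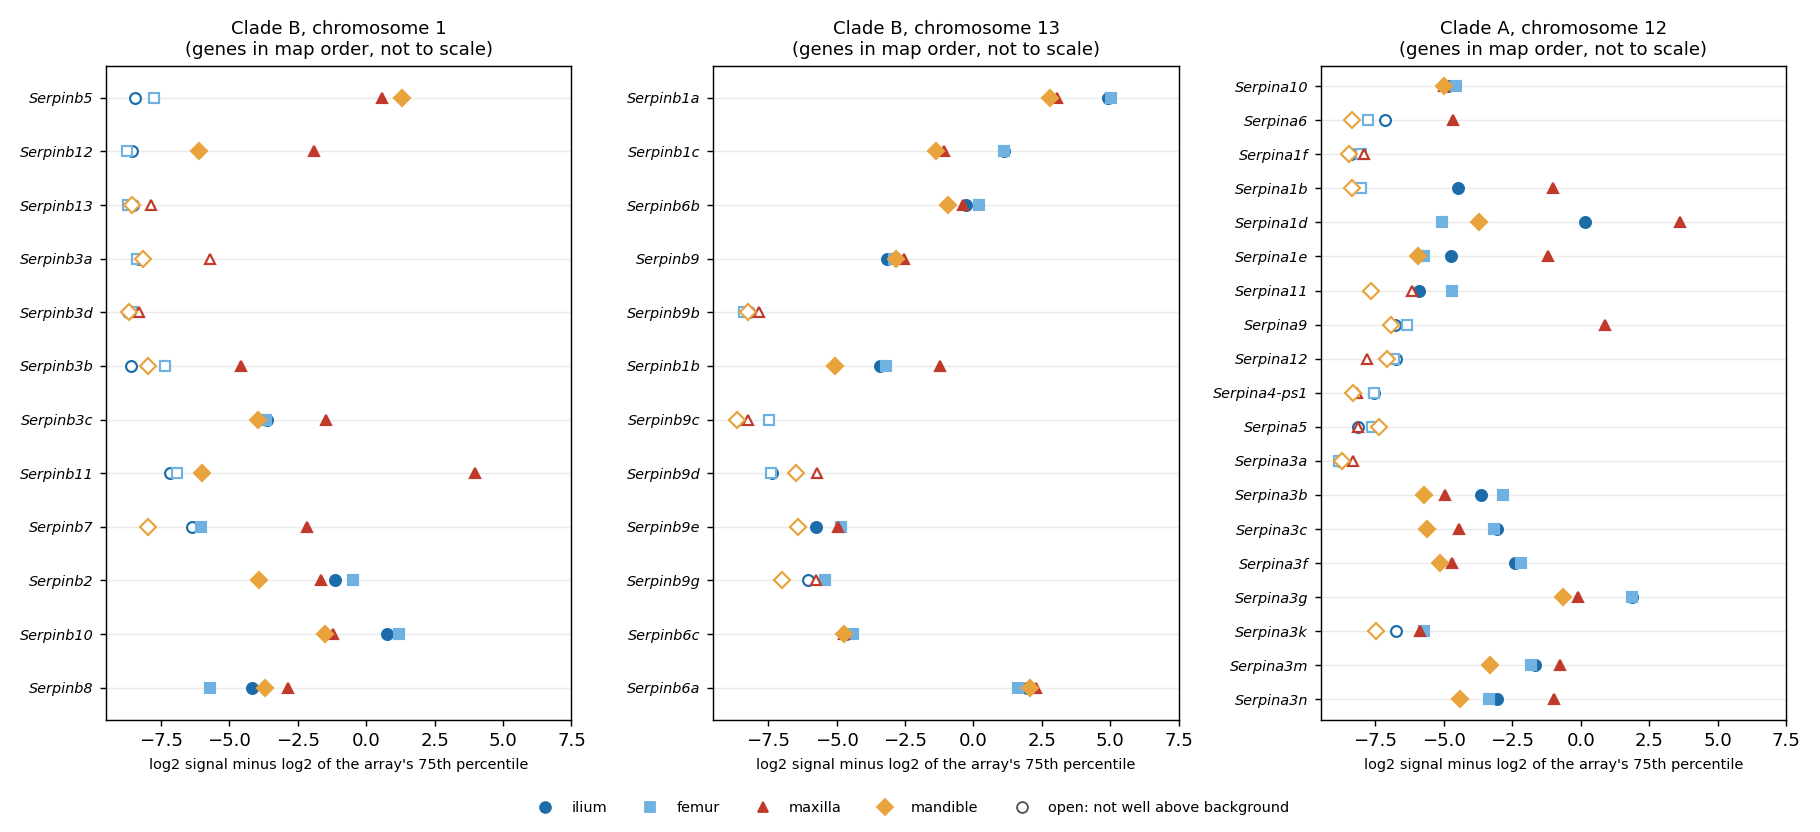
Log2 signal minus the log2 of the array's 75th percentile (x axis) in each bone for the serpin genes of the 3 clusters, listed in map order (y axis); open symbols were not well above background. Red triangles (maxilla) stand alone to the right in much of the chromosome 1 cluster and in the Serpina1 genes, while Serpinb1a, Serpinb1c, Serpinb10 and Serpina3b to Serpina3g show the ilium and femur (blue) to the right of both jaw bones.

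Clade A had 20 genes, 19 on chromosome 12 (probes between 104016120 and 104814817, mm8) and Serpina7 on the X chromosome. Of these, 14 were well above background somewhere and 12 were tested. By limma 0 rose and 2 fell in the jaw, by the size rule 0 and 4 lay apart, and the median difference was -0.37. All of these calls fell in the Serpina3 branch, related to the antichymotrypsin gene of humans and much expanded in mice.

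Serpina3g (chromosome 12, 104642885 to 104642944, mm8), an intracellular member that inhibits cysteine proteases in immune cells, stood at 1.87 in the ilium and 1.86 in the femur, against -0.12 in the maxilla and -0.64 in the mandible. Limma called it lower in the jaw by -2.24 ± 0.27 (adjusted p = 0.0336). Serpina3f next to it stood at -2.42, -2.18, -4.70 and -5.14 (-2.62 ± 0.26, adjusted p = 0.0325), and its second probe gave -2.59. The jaw bones were 4.74-fold lower for Serpina3g and 6.14-fold lower for Serpina3f, with no overlap of the classes. With normexp background correction Serpina3f differed by -1.34 and was still called.

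Serpina3b and Serpina3c met the size rule but not the limma threshold. Serpina3b stood at -3.64, -2.84, -4.96 and -5.72 (-2.10 ± 0.45, adjusted p = 0.0646) and Serpina3c at -3.06, -3.18, -4.44 and -5.61 (-1.91 ± 0.47, adjusted p = 0.0811). In each, both jaw bones lay below both other bones. Limma called both genes under quantile normalization, median centring and the deposited series table, and with normexp neither met the size rule (-0.88 and -0.76).

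The members at the other end of the branch had the maxilla on top instead. Serpina3n, an inhibitor that responds to inflammation, stood at -3.07, -3.36, -0.98 and -4.41, and its maxilla value was 10.7-fold above the mandible. Serpina3m stood at -1.66, -1.80, -0.75 and -3.32, with the maxilla 5.93-fold above the mandible. In both genes the mandible was the lowest bone and the ilium and femur lay between the jaw bones, and their class differences of 0.52 ± 1.27 and -0.30 ± 0.96 were not called (adjusted p = 0.797 and 0.844).

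The Serpina1 genes encode forms of alpha-1-antitrypsin, a plasma protein made mainly by the liver that inhibits neutrophil elastase. Serpina1d (chromosome 12, 104164673 to 104164732, mm8) stood at 0.15 in the ilium and -5.05 in the femur, against 3.62 in the maxilla and -3.73 in the mandible. A bone of each class was high: the maxilla was 163-fold above the mandible and the ilium 36.8-fold above the femur. Serpina1b, at -4.48, -8.02, -1.004 and -8.35, was likewise highest in the maxilla and next in the ilium, and was not well above background in the femur or the mandible. Its maxilla value was at least 42.0-fold above the mandible and its ilium value at least 4.13-fold above the femur.

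Serpina1e stood at -4.75, -5.71, -1.20 and -5.95, with the maxilla 27.0-fold above the mandible and the ilium and femur 1.95-fold apart. The probes of Serpina1d and Serpina1e also match transcripts of other Serpina1 genes, so the paralogues cannot be told apart by them. Their class differences were 2.40 ± 3.29, 1.57 ± 2.98 and 1.66 ± 1.78 for Serpina1d, Serpina1b and Serpina1e, with adjusted p of 0.641, 0.740 and 0.552. Without the femur the differences of Serpina1d and Serpina1b were -0.20 each, without the maxilla they were -1.28 and -2.10, and that of Serpina1e was -0.72.

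The liver markers did not share 1 order of bones. Of 8 hepatocyte genes, Ttr and Apoc3 were not well above background on any array and Alb was so in the femur only, and the summed signal was 3.99 in the ilium and 5.14 in the femur, against 2.07 in the maxilla and 3.35 in the mandible. Trf, which encodes transferrin, made up nearly all of that sum: without it, a step chosen after its values were seen, the other 7 genes summed to 0.126, 0.158, 0.215 and 0.0723, highest for the maxilla. Ahsg stood at -4.81, -3.83, -3.04 and -5.84, highest in the maxilla, and Apoa2 was well above background in the maxilla only. The nasal and salivary gland markers were high in the maxilla (8 of 9 at 4-fold or more above the mandible), and 7 of 9 were well above background in the ilium against 4 in the femur. Their part in the Serpina1 values was not tested.

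Serpina9 and Serpina6 were well above background in the maxilla only and were not tested by limma. Serpina9, known from germinal centre B cells (chromosome 12, 104397991 to 104398050, mm8), stood at -6.79, -6.35, 0.88 and -6.92, and the maxilla was at least 150-fold above each other bone and at least 155-fold above the mandible. Serpina6, which encodes corticosteroid-binding globulin of plasma, stood at -7.16, -7.76, -4.67 and -8.36, with the maxilla at least 3.30-fold above each other bone. All 7 B lymphocyte markers were well above background in every bone, and their summed signal in the maxilla (16.3) was below that in the ilium (51.0) and femur (61.7). Serpina10, Serpina11 and Serpina3k gave class differences from -1.61 to -0.27 and were not called.

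**Figure D3:**
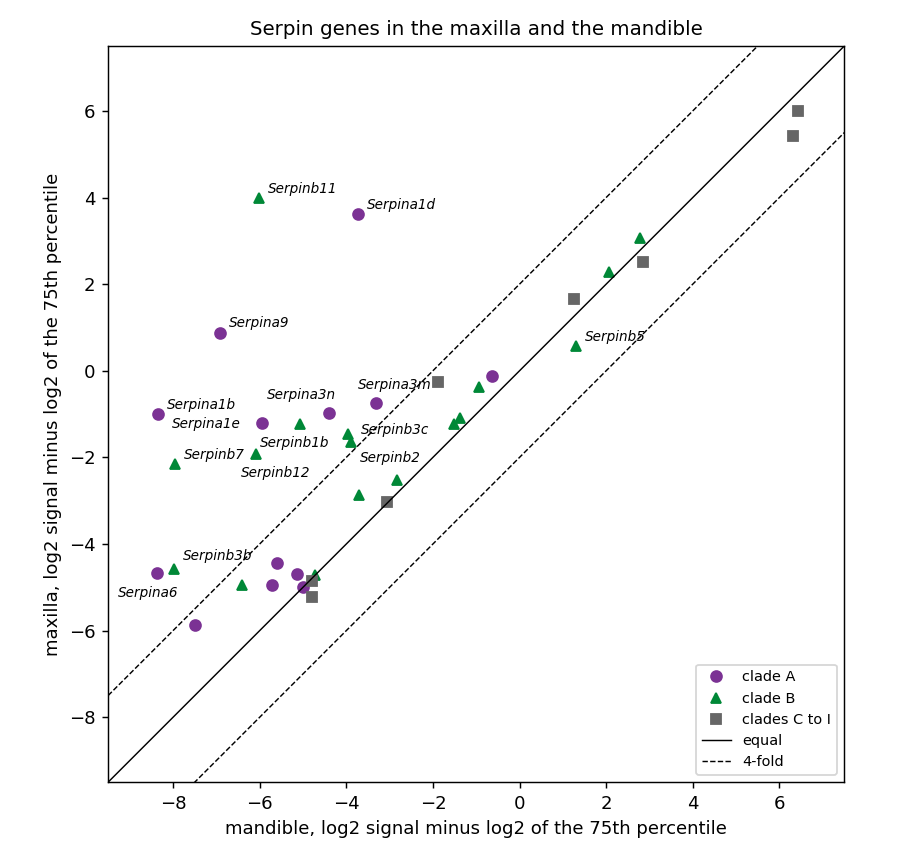
Log2 signal minus the log2 of the array's 75th percentile in the mandible (x axis) and the maxilla (y axis), 1 point for each of 38 serpin genes well above background in at least 1 of these bones; the solid line marks equal values and the dashed lines a 4-fold difference. The 14 named points above the upper dashed line are of clades A and B, Serpinb5 is named between the lines, no point lies below the lower one, and the genes of clades C to I lie between the lines.

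Clades C to I have 1 or 2 genes each, and 9 of the 10 are named here for that reason. Of the 10 genes 9 were tested, with 0 called higher and 1 lower by limma, and 0 apart by 4-fold in either pair of bones. Serpini2 was not well above background in any bone.

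Serpinh1, the endoplasmic reticulum chaperone of collagen (chromosome 7, 99219542 to 99219603, mm8), stood at 5.43 in the ilium and 4.47 in the femur, against 6.00 in the maxilla and 6.43 in the mandible. Both jaw bones lay above both other bones, but the difference of 1.27 ± 0.43 missed the threshold (limma adjusted p = 0.137). Serpinf1, which encodes pigment epithelium-derived factor made by bone-forming cells, stood at 5.79, 4.60, 5.42 and 6.32. The classes overlapped and the difference was 0.67 ± 0.57 (adjusted p = 0.462). With Serpinb1a, Serping1 and Serpinb6a these were the 5 genes described for the mean signal of their brightest probe, which does not order genes by RNA level, and all 5 were well above background in every bone.

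Serpinf2, which encodes the plasmin inhibitor antiplasmin (chromosome 11, 75248172 to 75248231, mm8), stood at -3.51 in the ilium and -3.10 in the femur, against -4.84 in the maxilla and -4.79 in the mandible. Limma called it lower in the jaw by -1.51 ± 0.24 (adjusted p = 0.0434). That call was lost with normexp background correction (-0.64, adjusted p = 0.134), with quantile normalization (-1.81, adjusted p = 0.0515) and with no filter on background (adjusted p = 0.0643).

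Of the inhibitors of clotting and fibrinolysis, antithrombin (Serpinc1) stood at -4.40, -4.48, -5.22 and -4.80. Both jaw bones lay below both other bones, but the difference of -0.57 ± 0.24 was not called (adjusted p = 0.201). A second Serpinc1 probe, well above background in every bone, stood at -4.33, -4.40, -5.70 and -5.74 and gave a larger difference, -1.36. Serpind1, heparin cofactor II, stood at -2.45, -4.43, -3.03 and -3.07, its ilium value just under 4-fold above the femur (1.97 on the log2 scale). Serpine2, protease nexin 1, stood at 1.90, 0.82, 1.66 and 1.26 (0.10 ± 0.46). In both the classes overlapped.

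Serping1, the C1 inhibitor of the complement and contact systems, stood at 2.09, 2.20, 2.52 and 2.86, with both jaw bones above both other bones but a difference of only 0.55 ± 0.23 (adjusted p = 0.190). Serpini1 (neuroserpin), an inhibitor of tissue plasminogen activator in the nervous system, stood at -2.95, -2.22, -0.27 and -1.88. It was highest in the maxilla, and its difference of 1.51 ± 0.67 was not called (adjusted p = 0.210). The neuron and nerve markers were higher in the same jaw bones (3 of 6 tested called higher, 0 lower), and their part in the Serpini1 values was not tested.

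**Figure D4:**
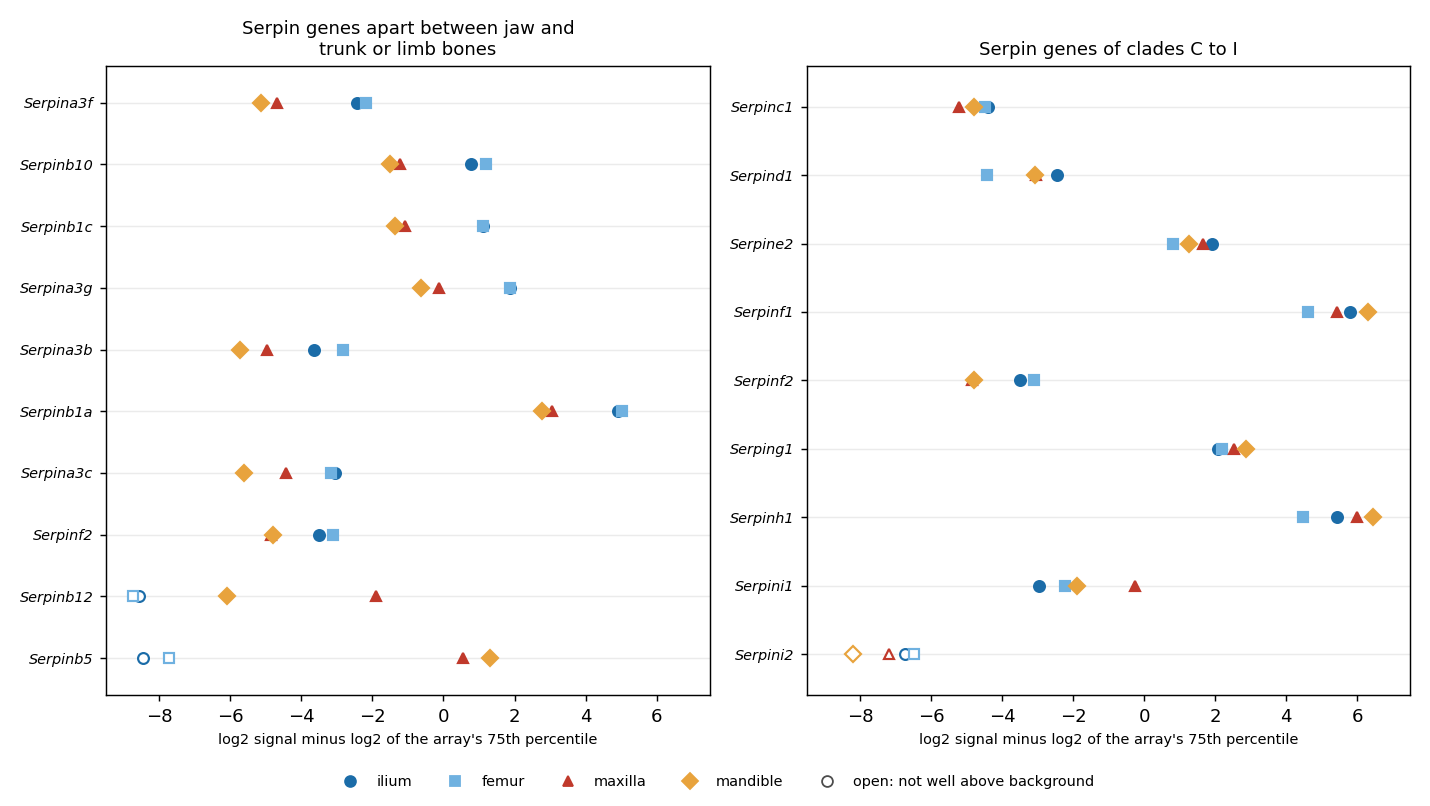
Log2 signal minus the log2 of the array's 75th percentile (x axis) in each bone for the 10 serpin genes called by limma or apart by the size rule (left) and 9 genes of clades C to I (right); open symbols were not well above background. On the left the jaw bones (red and orange) stand left of the ilium and femur in 8 genes and right of them in Serpinb12 and Serpinb5, and on the right the bones overlap more.

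The proteases that serpins act on were described by 8 lists of partner genes. Over all 20616 genes tested, limma called 4.51% higher and 7.25% lower, and the size rule separated 9.34% upwards and 9.82% downwards. Granule proteases of neutrophils, mast cells and killer lymphocytes moved in both directions: of 12 tested, limma called 6 lower and 3 higher in the jaw (median -1.46). The list holds serine proteases and 1 metallopeptidase, the mast cell carboxypeptidase Cpa3, which is among the 6 (-1.18 ± 0.20, adjusted p = 0.0461). Neutrophil elastase (Elane), a target of Serpinb1a and alpha-1-antitrypsin, stood at 2.88, 2.90, -0.72 and 0.35 (-3.08 ± 0.43, adjusted p = 0.0371). Proteinase 3 (Prtn3, -3.41 ± 0.39) and cathepsin G (Ctsg, -2.37 ± 0.21), also targets of Serpinb1a, were called lower as well (adjusted p = 0.0325 each), as was the basophil protease Mcpt8 (-3.10 ± 0.37). These 3 target genes are also on the neutrophil marker list. The mast cell proteases Mcpt4 (2.30 ± 0.23) and Cma1 (2.11 ± 0.20) were called higher. Granzyme B (Gzmb), the target of Serpinb9, differed by -1.74 ± 0.37 and was not called (adjusted p = 0.0658).

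Of 14 epithelial serine proteases tested, limma called 1 higher and 0 lower, the size rule 3 and 0, and the median was 1.84. St14 (matriptase) stood at -1.73, -1.54, 2.15 and 0.97 (3.20 ± 0.47, adjusted p = 0.0397), and Prss8 (prostasin), well above background only in the jaw, was there at least 25.7-fold higher (adjusted p = 0.0951). Tmprss13, likewise seen only in the jaw, was at least 18.5-fold higher (adjusted p = 0.128). Of this list 6 genes had the maxilla 4-fold or more above the mandible and 0 had it below, against 8.95% and 2.50% of all genes. Other protease inhibitors, of families outside the serpins, were called in both directions: of 17 tested, 1 was called higher and 3 lower. The matriptase inhibitor Spint1 stood at -6.07, -7.32, 2.01 and 0.76, was not well above background in the femur, and was called higher (8.08 ± 0.67, adjusted p = 0.0325). Wfdc2 met the size rule with 7.83 ± 2.33 (adjusted p = 0.111). The elastase inhibitor Slpi stood at 5.50, 5.57, 2.95 and 3.16 and was called lower (-2.48 ± 0.20, adjusted p = 0.0325), as were Stfa3 and Tfpi. Stfa2 was lower by the size rule only (-2.37 ± 0.42, adjusted p = 0.0505).

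Among 17 tested coagulation and fibrinolysis genes, limma called 2 lower and 0 higher (median -0.02): F10 (-2.68 ± 0.33, adjusted p = 0.0338), a target of antithrombin, and Plaur (-2.09 ± 0.26, adjusted p = 0.0342), the urokinase receptor. Tissue plasminogen activator (Plat), a target of Serpini1, stood at -2.01, -2.51, 1.51 and -0.08 and was higher by the size rule but not by limma (2.97 ± 0.64, adjusted p = 0.0656). The thrombin receptor F2r was higher (1.90 ± 0.40, adjusted p = 0.0639) and the cofactor F5 lower (-2.27 ± 0.48, adjusted p = 0.0641) by the size rule only. Plg, which encodes the plasmin precursor that Serpinf2 acts on, was well above background in the femur only. Of 22 collagen folding partners of Serpinh1, 1 was called higher, P4ha3 (1.35 ± 0.22, adjusted p = 0.0439; not well above background in the femur), and 0 lower, with a median of 0.86. Of 11 complement and contact genes, 1 was called lower, C3 (-1.98 ± 0.20, adjusted p = 0.0325), and 0 higher. These single calls among 22 and 11 genes lie near the shares of all genes, 4.51% higher and 7.25% lower. C1s1, a target of the C1 inhibitor, differed by 1.46 ± 0.32 (adjusted p = 0.0667) and the lectin pathway protease Masp1 by 1.64 ± 0.31 (adjusted p = 0.0555). Limma called 0 of 11 lysosomal cysteine proteases and 0 of 10 receptors that clear serpins, with 3 and 1 at an unadjusted p under 0.05 and medians of -0.26 and 0.36.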

How the data were processed

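The array files deposited by the authors hold linear spot intensity from Agilent Feature Extraction (version 9.5.3.1), as the submitters' processing notes state; the processed signal was background-subtracted before deposit, per the file headers. The deposited series table, from which a value set was used as an alternative, holds log2 values made after import into GeneSpring 10.0.2, per the series description. Compared with the array files, a column equals the log2 ratio to the ilium less some constant (tolerance 0.001) in no fewer than 99.93% of 41174 probes, and how the constants were chosen is not given in the sources used here. The column medians were 0.0233 (femur), -0.218 (maxilla) and -0.133 (mandible). Probe positions are on mm8, per the file headers.

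Between 72.8% and 75.5% of spots were well above background on an array, and 0 were saturated. The number of arrays limits the precision. Values were log2 processed signal minus that of the array's 75th percentile. Outlying spots were left out, spots of a probe averaged, and the probe of a gene with the highest mean used. Probes were named through a RefSeq table (GRCm38.p6), which added 5 serpin probes outside the naming rule that were not used as members. Of the 54 genes, 19 had several probes, whose class differences ranged over a median of 0.53 and up to 4.08 (Serpinb1b). Promoters from RefSeq matched 44 of 54 members.

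A gene was tested if 2 or more arrays had it well above background, with limma 3.58.1 in R 4.3.3 (lmFit, eBayes; 2 residual and 1.76 prior degrees of freedom) and Benjamini-Hochberg adjustment over all of them, threshold 0.05. The script was tested on simulated data. A gene below that level on each array of a class, or in the dimmer of 2 bones, has only a bound: the brighter mean against, per array, the lowest value well above background (from -6.53 to -6.02) or its own if higher. Named were serpins called, apart by the size rule, 4-fold apart between 2 bones or among the 5 brightest, and the partner genes with the largest called or size-rule differences, plus targets. The values of 1 member are not reported here. Members, 8 partner lists and 16 marker lists were chosen with earlier results of these data known. Alternatives were normexp (offset 50), quantile normalization, median centring, the series table, 2 other filters, the mean over probes, whole probes left out for an outlying spot, and each bone left out.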

Additional observations from a re-analysis of the deposited data

How the results depend on the processing

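Serpinb1a, Serpinb1c, Serpinb10, Serpina3f and Serpina3g kept their limma calls under all alternatives that kept the 4 bones. With only genes well above background on all 4 arrays, which removes Serpinb5 and Serpinb12 by construction, limma called 0 serpins higher, the size rule 0 higher, 7 were 4-fold apart between maxilla and mandible and 1 between ilium and femur. With normexp background correction the size rule gave 1 higher and 5 lower (Serpina3b, Serpina3c, Serpinb12 and Serpinf2 no longer met it), and 1 serpin was 4-fold apart between ilium and femur; the cause was not tested. The median difference over serpins was -0.102 with median centring and -0.103 with the series table, the same as for Serpinb1b, the middle gene. Against the median of all genes, -0.28 in both, it stayed higher.

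Leaving out each bone in turn gave 0 to 10 limma calls higher and 0 to 13 lower, both 0 without the ilium and without the femur, and 3 to 12 higher and 8 to 14 lower by the size rule. The median over serpins ran from -0.89 without the maxilla to 0.38 without the mandible, and was -0.052 without the femur. Single genes that changed sign ran from -2.10 to 5.25 for Serpina1b, -1.28 to 6.07 for Serpina1d, -0.72 to 4.04 for Serpina1e, -1.25 to 0.38 for Serpina3k (0.067 without the femur), -1.59 to 0.98 for Serpina3m, -1.19 to 2.23 for Serpina3n, -1.78 to 2.08 for Serpinb1b, -0.30 to 2.21 for Serpinb3c, -1.75 to 4.04 for Serpinb7, -1.12 to 0.36 for Serpinb9e (0.089 without the femur), -0.59 to 1.38 for Serpind1 and -0.44 to 0.64 for Serpine2 (-0.10 without the maxilla). With all 4 bones, the sign also turned for Serpina10 (0.053 with normexp and 0.0082 for the mean over probes), for Serpina3k (0.14), Serpinb6c (0.066) and Serpinb9e (0.091) with normexp, and for Serpine2 (-0.15 with median centring and -0.16 with the series table). The differences of all these genes between maxilla and mandible rest on 1 array each. Background limits Serpinb5, Serpinb11, Serpinb12 and Serpina9, whose folds over bones not well above it are bounds.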
